A study of Caenorhabditis elegans with 2 samples.

Results

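The 705 peaks described here are reproducible autosomal exon peaks of UNC-62 in whole L4 larvae of Caenorhabditis elegans. They were selected on measured values, out of 30000 peaks in the deposited list made from both replicates pooled. A peak was taken if it lay on an autosome, had a signal value of at least 14 in the pooled list and overlapped a peak of each replicate by at least 1 bp. Its summit also had to lie in an exon of a protein-coding gene, outside the region from 1000 bp upstream to 200 bp downstream of any protein-coding transcript start. The signal and overlap conditions were met by 3105 of the 24146 autosomal pooled peaks, or 12.9%, and by 705 of the 5815 autosomal exon peaks, or 12.1%. Exon peaks therefore met them at about the rate of autosomal peaks as a whole. The remaining 2400 reproducible autosomal peaks had 1112 summits in promoters, 620 in introns, 585 between genes and 83 in non-coding genes.

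Chromatin immunoprecipitation and sequencing (ChIP-seq) was done on 1 group with 2 biological replicates. The larvae were of strain OP602 and of mixed sex, from a transgenic line that stably makes UNC-62 fused at its C-terminus to GFP-FLAG. The labels mention an insertion targeting unc-62 and give UNC-62 as the antibody's target. All tissues were profiled together, so the cells behind a peak are not known, and no group without the tag was analysed here.

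UNC-62 belongs to the Meis/Homothorax family of homeodomain transcription factors. Meis proteins act with PBC and Hox homeodomain partners in patterning and in cell fate, and their homeodomain recognises a short core, TGACAG. Transcription factor sites are usually sought in promoters, introns and intergenic enhancers. A coding exon is also constrained by the protein it encodes, and neighbouring genes lie close together in the worm, so an exon of one gene can lie near the start of another.

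The sequences of a few coding peaks are shown first, since the comparisons below turn on what lies at such summits. All are from WBcel235 (ce11), count from 1 and are written 5' to 3' on the strand of the host gene, the gene whose exon holds the summit. The first 4 are the 5 strongest coding peaks without that of kin-14, whose sequence is not shown. Capitals mark the 11 bases centred on the summit. They are from dhc-4 (chrIII:10989804-10989904, plus strand), spp-8 (chrIV:8482805-8482905, plus strand), C30G7.5 (chrV:14953168-14953268, minus strand) and ZK1127.3 (chrII:7055915-7056015, plus strand).
dhc-4: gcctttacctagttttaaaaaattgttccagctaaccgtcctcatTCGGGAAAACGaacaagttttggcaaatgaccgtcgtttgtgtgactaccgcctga
spp-8: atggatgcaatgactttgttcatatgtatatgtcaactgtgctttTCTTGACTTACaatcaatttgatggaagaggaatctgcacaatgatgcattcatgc
C30G7.5: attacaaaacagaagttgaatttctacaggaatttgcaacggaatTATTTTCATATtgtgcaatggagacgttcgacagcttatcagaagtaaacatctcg
ZK1127.3: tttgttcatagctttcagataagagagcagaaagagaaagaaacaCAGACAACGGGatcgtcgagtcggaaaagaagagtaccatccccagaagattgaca

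The next 5 coding peaks hold the Meis core near the summit, and capitals mark TGACAG or its complement CTGTCA. Coding refers to the summit base, and a printed stretch, with a core in it, can reach past the exon. The first 3 are among the strongest coding peaks with the core close to the summit, and in the other two the core covers the summit base. They are from ctsa-3.1 (chrII:7235726-7235826, plus strand), metl-5 (chrIII:4804230-4804330, plus strand), srh-75 (chrV:11056520-11056620, minus strand), C08G9.2 (chrIV:7664806-7664906, minus strand) and aco-2 (chrIII:7975200-7975300, plus strand), which encodes a mitochondrial aconitase.
ctsa-3.1: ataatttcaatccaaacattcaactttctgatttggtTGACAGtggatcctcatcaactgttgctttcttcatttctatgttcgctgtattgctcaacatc
metl-5: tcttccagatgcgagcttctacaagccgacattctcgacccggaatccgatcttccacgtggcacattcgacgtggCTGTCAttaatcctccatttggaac
srh-75: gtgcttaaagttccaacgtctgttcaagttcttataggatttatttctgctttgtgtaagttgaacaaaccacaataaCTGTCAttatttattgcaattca
C08G9.2: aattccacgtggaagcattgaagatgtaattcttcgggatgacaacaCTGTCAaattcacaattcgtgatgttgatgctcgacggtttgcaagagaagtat
aco-2: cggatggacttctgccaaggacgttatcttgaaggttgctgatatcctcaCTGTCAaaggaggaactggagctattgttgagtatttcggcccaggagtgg

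Short stretches are shown for 3 strong peaks in untranslated regions. In unc-62 (chrV:4508156-4508185, plus strand) and din-1 (chrII:11619305-11619334, minus strand) capitals mark a run of GAGAGA or its complement TCTCTC in the 5' UTR. In T23G4.127 (chrIV:13695927-13695956, minus strand) capitals mark the 11 bases centred on the summit in the 3' UTR.
unc-62: gaaaaattgtGAGAGAGAgtgaaaaagatg
din-1: ttttcgtctcggTCTCTCagtttgttgttg
T23G4.127: tccggggcccCGTGTGTCATCtcatcttga

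By the rule the 705 peaks lay in the upper part of the pooled list, where 5894 of the 24146 autosomal peaks (24.4%) had a signal of at least 14, but most of them ranked far from the top in each replicate. The signal value is the authors' and its scale is not stated, so it is used here to order peaks and describe them. It ran from 14.0086 through a median of 16.9 to 105, with quartiles of 15.3 and 19.2, and 142 peaks (20.1%) reached 20. Of the reproducible promoter, intron and intergenic peaks, 32.5%, 27.4% and 30.6% reached 20. Signal chose the peaks, so these values and the ranks below are descriptions. Just inside the rule lay coding peaks of Y67A10A.7 at 14.0086, rpb-2 (an RNA polymerase II subunit) at 14.009 and laf-1 (a DEAD-box RNA helicase) at 14.01. Just outside it, overlapping both replicates, lay coding peaks of gly-9 at 13.9556, ttn-1 (a giant muscle protein) at 13.9508 and mstr-2 at 13.9416. These 6 peaks thus lay within a narrow band around the limit, and all had coding summits.

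The strongest overlapping peak of each replicate gave a signal for every exon peak. In replicate 1 these values ran from 6.61 through a median of 8.95 to 58.8, with a median rank of 5307 among 15466 peaks. In replicate 2 they ran from 5.03 through a median of 7.57 to 56.8, with a median rank of 8509 among 24524 peaks. Only 10 of the 705 (1.42%) stood in the top 1000 of both replicates, and 599 (85.0%) stood in the top 1000 of neither. Over all 705 sites Spearman's rho between the replicates' signals was 0.012. The sites had been selected on the pooled signal of both libraries, so rho depends on the limit and describes these sites only, with no p. It was -0.314 at a signal of at least 20 and 0.108 at a limit of 10, and Pearson's r of log2 signal was 0.141 over the 705. For the reproducible promoter, intron and intergenic peaks rho was 0.103, 0.0723 and 0.126, over 1112, 620 and 585 sites. The median distance between the replicates' summits was 71 bp at the exon peaks and 74 bp at the other reproducible peaks, and the overlap rule itself keeps it short.

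**Figure D1:**
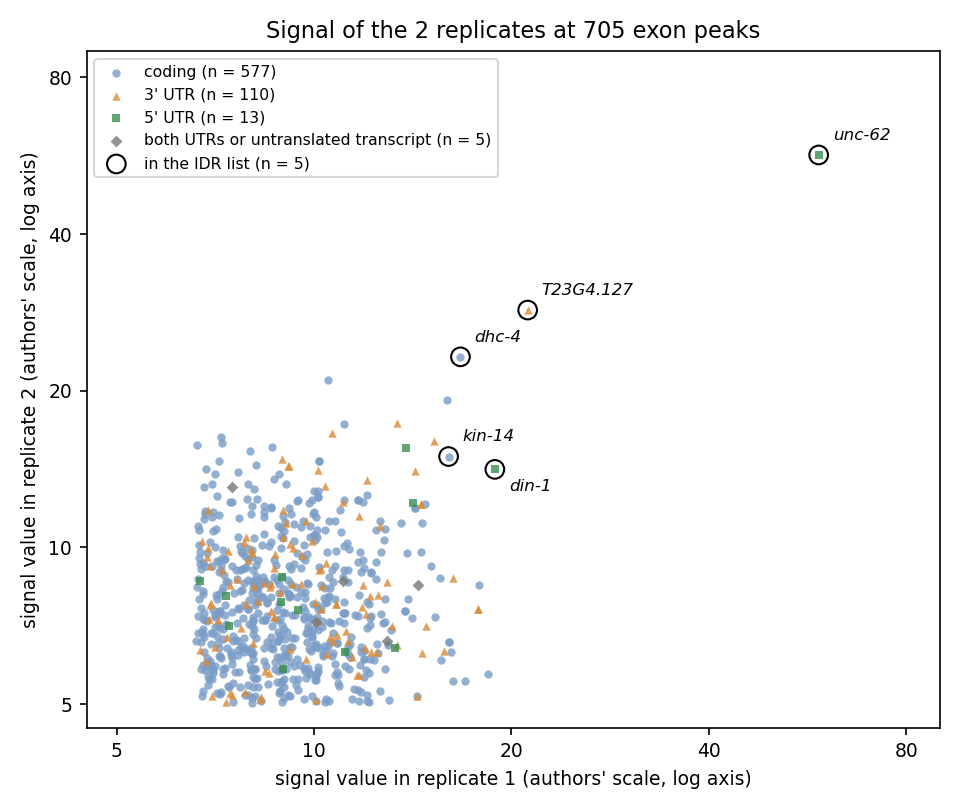
Signal value in replicate 2 (vertical, log axis) against that in replicate 1 (horizontal, log axis) at each of the 705 exon peaks, coloured by the exon class of the summit, with circles around the 5 peaks in the IDR list. Most points form a block (Spearman's rho 0.012 over sites selected on the pooled signal), and unc-62, T23G4.127 and dhc-4 stand above it in both replicates.

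The overlap condition removed mostly the weaker exon peaks that reached the signal limit. Of 1367 autosomal exon peaks with a signal of at least 14, 705 (51.6%) overlapped a peak of both replicates and 662 did not, and of the other autosomal peaks at that signal 2400 of 4527 (53.0%) overlapped both. It removed 414 of the 666 exon peaks from 14 to 16 (62.2%) and 25 of the 167 at 20 or more (14.97%). No replicate 1 peak lay at 388 of the 662 and no replicate 2 peak at 289, and the strongest had a signal of 24.5. Of the exon peaks below 14, 395 overlapped both replicates. Neighbouring pooled peaks can rest on the same replicate peak, and 34 of the 705 (4.82%) shared one with another exon peak of the set. The 705 peaks are thus not 705 independent sites.

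The authors' IDR list, which is limited by the irreproducible discovery rate, a measure of how well replicates keep the order of their peaks, held 5 of the 705 exon peaks. That is 0.709% (exact 95% interval 0.231% to 1.65%), against 2.61% of all 3105 reproducible autosomal peaks and 3.87% of the promoter peaks (43 of 1112). These 5 were also the strongest of the 705. IDR and the rule both use the signal of the replicates, so the shares are given with no test.

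The peak in unc-62 had the highest signal of the whole pooled list, at 105, with 58.8 in replicate 1 and 56.8 in replicate 2. Its summit lay at position 4508218 on chromosome V, in an exon that is 5' UTR, and the nearest start was 1014 bp upstream. The gene is also the one that carries the tag in this line, and its copy number in the line was not examined. T23G4.127 followed with a pooled signal of 51.9, with 21.2 in replicate 1 and 28.6 in replicate 2, and its summit lay in its last exon, in the 3' UTR, at 13695941 on chromosome IV. These 2 peaks were high in both replicates, at rank 1 and 42 in replicate 1 and rank 2 and 37 in replicate 2.

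The strongest coding peak lay in dhc-4, which encodes a dynein heavy chain, a motor subunit. It had a pooled signal of 42.0, with 16.7 in replicate 1 and 23.2 in replicate 2, at 10989854 on chromosome III in exon 32 of 35. The nearest annotated start belonged to a collagen gene, col-94, 1981 bp away. The summit in din-1, which encodes a corepressor that acts with the nuclear hormone receptor DAF-12, lay in the 5' UTR at 11619263 on chromosome II. Its signal was 35.6 pooled, 18.9 in replicate 1 and 14.1 in replicate 2. In kin-14, a kinase gene, the summit lay in the first exon, in coding sequence 242 bp downstream of the start. Its signal was 34.3 pooled, 16.04 in replicate 1 and 14.9 in replicate 2. Of these 5 peaks, those of din-1, kin-14 and unc-62 thus lay in the first exon of a transcript of their gene. They were 815, 242 and 1014 bp downstream of a start of that gene. From 0 at the gene's start to 1 at its end, they lay at 0.762, 0.066 and 0.769. Only that of kin-14 was thus close to the beginning of the whole gene.

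After these 5 the signals fell into a narrow range, and the replicates differed at some peaks and were close at others. The next was spp-8, which encodes a saposin-like protein, with a pooled signal of 29.3, 10.5 in replicate 1 and 20.96 in replicate 2. It ranked 2471 in replicate 1 and 98 in replicate 2. The 3' UTR peak of mnk-1, which encodes a MAP kinase-interacting kinase, had 29.1 pooled, 8.94 in replicate 1 and 14.8 in replicate 2. C30G7.5 had 29.0 pooled, 11.1 in replicate 1 and 17.2 in replicate 2. All 3 stood in the top 1000 of replicate 2 and outside that of replicate 1.

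The opposite case also occurred. The 3' UTR peak of T21B10.4 had 25.9 pooled, with 16.3 in replicate 1 and 8.73 in replicate 2, at ranks 161 and 5042. In lron-14 the values were 26.4 pooled, 14.6 in replicate 1 and 9.78 in replicate 2. Both stood in the top 1000 of replicate 1 and outside that of replicate 2. B0361.9 and C05D11.8, each with a 3' UTR summit, and C34C12.2, with a 5' UTR summit, had pooled signals of 28.9, 28.4 and 28.3 and stood in the top 1000 of both replicates.

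The rest of the 20 strongest peaks had pooled signals from 25.8 to 27.6. They lay in ZK1127.3, C30G12.6, Y54G2A.37 and aex-5 (a proprotein convertase needed for the defecation programme) in coding sequence, and in ztf-17 (a zinc finger protein gene), tbg-1 (gamma-tubulin) and mom-5 (a Frizzled receptor for Wnt) in 3' UTRs. Of the 20, 9 summits were in coding sequence, 8 in 3' UTRs and 3 in 5' UTRs. UTR summits thus made up 11 of the 20 strongest, though 577 of all 705 were coding.

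**Figure D2:**
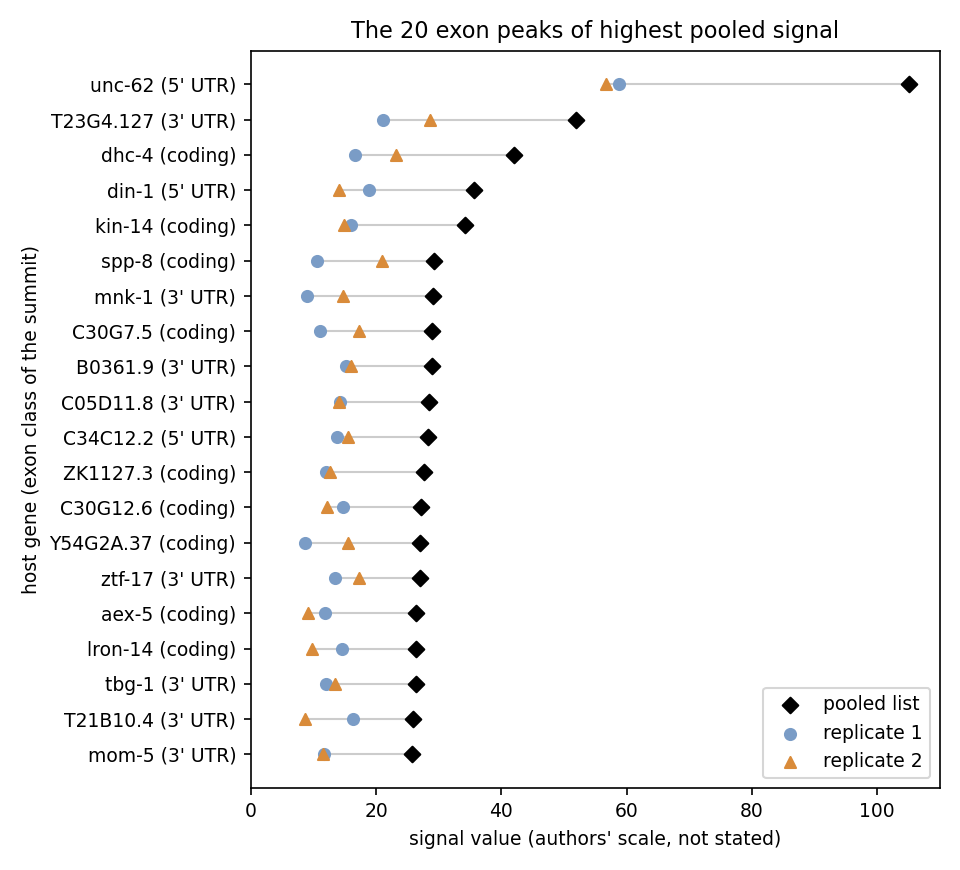
Signal value (horizontal, the authors' scale, which is not stated) of the 20 strongest exon peaks in the pooled list (diamonds), replicate 1 (circles) and replicate 2 (triangles), by host gene and exon class. The pooled value drops from 105 at unc-62 to 34.3 at the fifth peak and then stays between 25.8 and 29.3, with the replicates far apart at spp-8 and T21B10.4.

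Within exons, coding summits were less frequent and 3' UTR summits more frequent among the reproducible peaks than among the rest. Of the 705, 577 (81.8%) had the summit in coding sequence, against 4504 of the 5110 other autosomal exon peaks (88.1%), an odds ratio of 0.607 (95% interval 0.490 to 0.754). By Fisher's exact test, two-sided, the p adjusted by Benjamini-Hochberg over 2 tests was 1.37e-05. The 3' UTR held 110 of the 705 summits (15.6%, interval 13.002% to 18.5%), against 10.3% of the others, and the 5' UTR 13 (1.84%) against 1.27%. A further 2 lay in UTRs of both kinds and 3 in exons of untranslated transcripts. Judged by the unadjusted p of the same test, the call was lost without replicate 2. With the 705 strongest exon peaks of replicate 1's own list set against the rest of its exon peaks, the odds ratio was 0.948 and the unadjusted p 0.701. The same from replicate 2's list gave 0.794 and 0.0465, which is close to 0.05 and was not adjusted over 2 tests as above. The test compares sites, which share libraries, and does not measure the spread between replicates.

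GC content moved with the class. The median window, 100 bp to either side of the summit, was 33.8% GC at the 3' UTR peaks and 39.3% at the coding peaks of the set. Its part in the difference was not tested. At 38.8% over all classes the median was the same for the 705 peaks and the other exon peaks.

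The class of the summit varied with the signal. Among all autosomal exon peaks, in or out of the set, 88.2% of summits were coding at a signal under 10 (interval 86.5% to 89.8%) and 88.1% from 14 to 16. From 16 to 18 the share was 85.2%, from 18 to 20 it was 82.9%, and at 20 or more it was 74.9% (67.6% to 81.2%, n = 167). The 3' UTR share went the other way, at 9.92% under 10 and 20.96% at 20 or more. Within the set, 29 of the 142 peaks at 20 or more were in 3' UTRs (20.4%), against 32 of the 252 from 14 to 16 (12.7%). In both groupings the 3' UTR share was highest in the peaks at 20 or more.

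**Figure D3:**
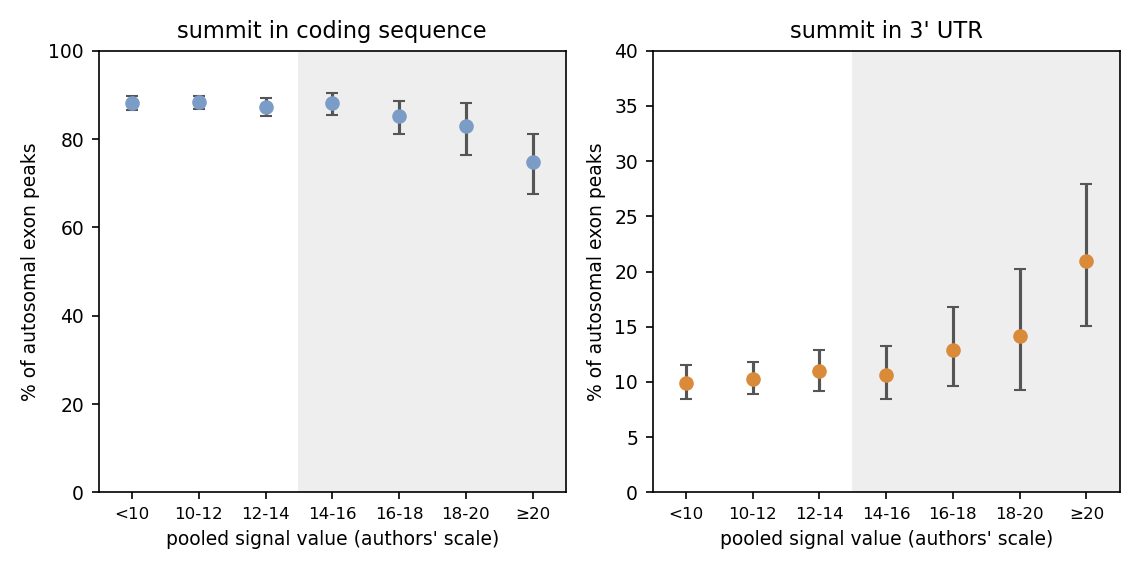
Share of autosomal exon peaks whose summit lay in coding sequence (left) or in a 3' UTR (right) by pooled signal value, with exact 95% intervals that cover counting error over peaks only. Grey marks signals that the selection rule admits. Coding falls to 74.9% and 3' UTR reaches 20.96% at 20 or more.

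The exon peaks lay somewhat later in genes than the other exon peaks. Both sets leave out summits up to 200 bp downstream of a start, so a late position as such is in part set by the rule. An internal exon held 461 (65.4%), against 72.3% of the other exon peaks, and a last exon 208 (29.5%), against 24.1%. A further 33 lay in first exons and 3 in genes with a single exon. Within 500 bp of a transcript end lay 35.2% of the set and 29.7% of the other exon peaks. On a scale from 0 at the gene's start to 1 at its end, the median summit lay at 0.662 in the set and at 0.609 in the others. The host exon had a median length of 367 bp in the set and 336.5 bp in the others. These features were described and not tested.

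The nearest start belonged to another gene at 174 of the 705 peaks (24.7%), against 23.1% of the other exon peaks. Within the set that held for 43 of the 110 3' UTR peaks (39.1%, interval 29.9% to 48.9%) and 129 of the 577 coding peaks (22.4%, 19.02% to 25.98%). Among the other exon peaks it held for 45.4% of those in 3' UTRs and 20.9% of the coding ones. For C05D11.8 the nearest start was that of atgl-1, a triglyceride lipase gene, 1869 bp away. For mnk-1 it was that of pro-1, at 1998 bp. Other reproducible summits lay within 1000 bp of 87 exon peaks, of which 53 were exon peaks too, 17 intron and 11 promoter peaks.

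The Meis core passed the test in neither direction at the 705 peaks. TGACAG, searched on both strands within 100 bp of the summit, was found at 55 of the 705 (7.80%), against 400 of the 5110 other exon peaks (7.83%). The odds ratio was 0.996 (95% interval 0.729 to 1.34) and the adjusted p over 6 sequences 1, by Fisher's exact test, two-sided. Against the 2400 reproducible peaks of other classes (7.79%) the odds ratio was 1.00 (0.718 to 1.38). The core lay between 0 and 95 bp from the summit, with a median of 44 bp, and within 25 bp at 15 of the 55. The first comparison changed without replicate 1. With the 705 strongest exon peaks of replicate 2's own list set against its other exon peaks, the odds ratio was 1.47 and the unadjusted p 0.00614. The same from replicate 1's list gave 0.875 and 0.474.

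Among the peaks with the core whose sequence is shown above, ctsa-3.1 had a pooled signal of 20.3, with 9.33 in replicate 1 and 11.1 in replicate 2. In C08G9.2 the values were 17.1, 10.1 and 6.42 in the same order. In aco-2 they were 15.2, 7.93 and 7.62. None of them was among the 20 strongest exon peaks, of which 1, that of ZK1127.3, held the core within 100 bp of its summit. By signal the core was found at 20 of 252 peaks from 14 to 16 (7.94%), 20 of 196 from 16 to 18 (10.2%), 6.09% of those from 18 to 20 and 8 of 142 at 20 or more (5.63%, interval 2.46% to 10.8%).

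The sequence GAGAGA set the exon peaks apart from the other reproducible peaks but not, at the adjusted threshold, from other exons. It was found on either strand at 88 of the 705 (12.5%), against 542 of the 2400 reproducible peaks of other classes (22.6%). The odds ratio was 0.489 (95% interval 0.379 to 0.626) with an adjusted p of 8.64e-09 by Fisher's exact test. Against the other exon peaks, 11.9% of which held it, the odds ratio was 1.06 (0.825 to 1.35) with an adjusted p of 0.931. Without replicate 1 this odds ratio was 1.28 with an unadjusted p of 0.0458, and without replicate 2 it was 1.30 with an unadjusted p of 0.0549. The runs in unc-62 and din-1 printed above are thus examples of a sequence that was less frequent in these exon peaks than in promoters (22.1%), introns (20.8%) or intergenic peaks (25.6%).

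GAGAGA was unevenly spread over the 705. It was found at 27 of the 252 peaks from 14 to 16 (10.7%, interval 7.18% to 15.2%) and at 28 of the 142 at 20 or more (19.7%, 13.5% to 27.2%). With the limit raised to 20, the peaks that met it were set against all other autosomal exon peaks. These included the peaks of the set below 20. The odds ratio was 1.85 and the unadjusted p of Fisher's exact test 0.00807. By class its share was 17.3% in 3' UTR peaks of the set (19 of 110), against 17.8% in other 3' UTR peaks, and 11.3% in coding peaks (65 of 577), against 11.0% in other coding peaks. In 5' UTR peaks it was 30.8% (4 of 13), against 23.1% (15 of 65). Of the 88 peaks, 35 had GAGAGA and 49 TCTCTC on the strand of the host gene, and 4 had both.

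Of the 4 other sequences searched on both strands, none differed between the 705 and the other exon peaks at an adjusted p of 0.05. The closest was ACACAC, at 6.95% against 5.17%, with an odds ratio of 1.37 (0.979 to 1.89) and an adjusted p of 0.365 by Fisher's exact test. TGATNNAT, a form of the site bound by Hox and PBC proteins together, was found at 18.2% against 19.1%. TTTCAG, which resembles the end of an intron, was found at 35.3% against 37.5%, and CACGTG, the E-box, at 5.39% against 5.26%.

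Against the reproducible peaks of other classes, ACACAC was less frequent at the exon peaks (6.95% against 13.2%, odds ratio 0.491, adjusted p = 8.72e-06 by Fisher's exact test). TTTCAG was more frequent there (35.3% against 29.0%), with an odds ratio of 1.34 and an adjusted p of 0.00308 by the same exact test. By class it was found at 33.4% of intron peaks (interval 29.7% to 37.3%), 30.2% of promoter peaks and 22.4% of intergenic peaks. The share in introns was thus close to that of the exon peaks. The median window of the exon peaks was 38.8% GC and that of the other classes 36.8%, and the part of base composition in these differences was not tested.

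**Figure D4:**
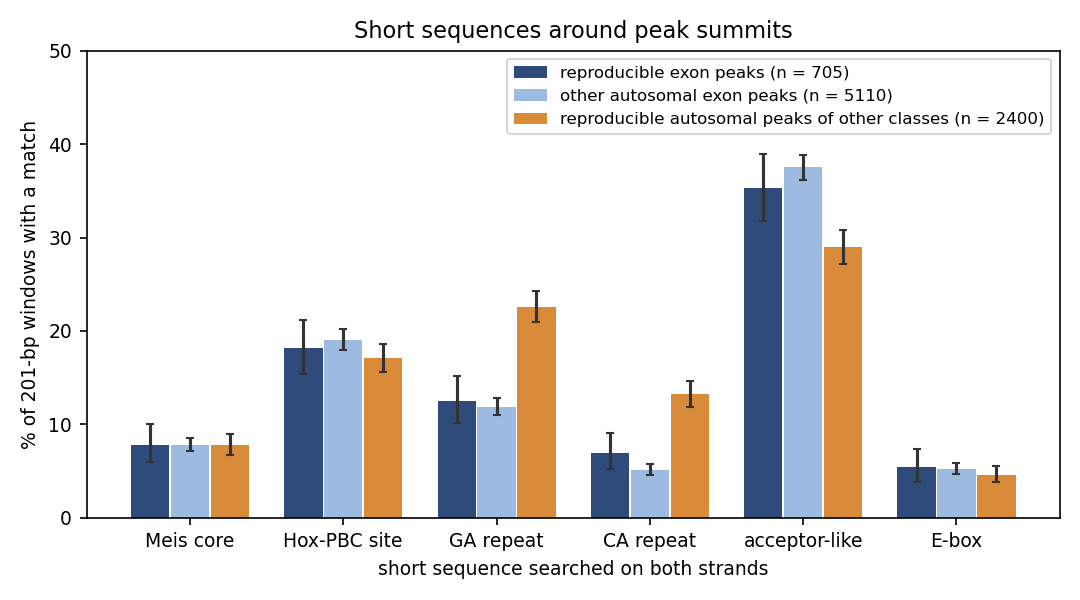
Share of windows of 100 bp to either side of the summit that hold each of 6 short sequences, for the 705 exon peaks, the 5110 other autosomal exon peaks and the 2400 reproducible peaks of other classes, with exact 95% intervals that cover counting error only. The Meis core (TGACAG) is level at 7.80%, 7.83% and 7.79%, and the GA repeat (GAGAGA) is at 12.5% and 11.9% in exons but at 22.6% in the other classes.

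A search of all 2080 sequences of 6 bases, counted with their complements and added after the data had been seen, gave 1 that was more frequent at the 705 than at the other exon peaks (0.0481%) and none that was less frequent (0%). It was GAGGGC, at 30 of the 705 (4.26%) and 1.61% of the others, with an adjusted p of 0.0484 by Fisher's exact test. At an unadjusted p of Fisher's exact test below 0.05 there were 56 more frequent and 51 less frequent sequences of the 2080. That is close to the share which such a limit would pass if no sequence differed. The single call was close to the threshold, and under 6 other settings the number past it was 0 or 2. Which sequences passed under those settings was not recorded. Of the 30 peaks, 20 were coding, 8 in 3' UTRs and 2 in 5' UTRs. They included the 3' UTR peaks of tbg-1 (pooled signal 26.3), pos-1 (25.6), which encodes a zinc finger protein of the early embryo, and gpb-1 (23.9), a G protein beta subunit gene.

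GAGGGC or its complement GCCCTC is in capitals in 2 coding peaks from that search, M70.1 (chrIV:2249082-2249182, plus strand) and Y50E8A.6 (chrV:14739985-14740085, minus strand). They were chosen after their values were seen.
M70.1: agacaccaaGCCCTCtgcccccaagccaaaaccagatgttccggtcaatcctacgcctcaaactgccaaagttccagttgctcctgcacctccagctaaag
Y50E8A.6: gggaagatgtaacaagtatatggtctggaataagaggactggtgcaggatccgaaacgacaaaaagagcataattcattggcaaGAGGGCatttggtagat

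Copies of a sequence elsewhere in the genome can share reads. No window of the 705 was multi-copy, which allows a share of up to 0.426%, against 7 of 5110 (0.137%) for the other exon peaks. Fisher's exact test gave an adjusted p of 1. A window was called multi-copy where at least 50% of its 36-base words occurred more than once in the reference genome. Any copies that the transgenic line carries beyond that genome, as of unc-62, could not be seen in this way.

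The exon peaks were spread over all autosomes in step with the exon sequence that could hold them. Per Mb of exon outside promoters there were 37.7 on chromosome I, 36.1 on II, 43.6 on III, 37.1 on IV and 39.7 on V, around 38.8 over all. They lay in exons of 664 genes, which is 3.87% of the 17138 autosomal protein-coding genes. The median host had 1467 bp of exon that could hold a peak, against 864 bp for all genes with any. Whether exon length bears on which genes are hosts was not tested.

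Of the hosts, 42 held more than 1 peak, and these had a median of 2701.5 bp of exon that could hold one. The 42 were counted without regard to shared replicate peaks, which 34 of the 705 peaks had (4.82%). Genes with 3 each included unc-44 (ankyrin) and prmt-7 (a protein arginine methyltransferase gene). In unc-44 the pooled signals were 19.6, 17.2 and 14.3. In prmt-7 they were 18.3, 15.998 and 15.2, but the first 2 summits lay 241 bp apart and rested on the same replicate peaks. Pairs in gpcp-2, dos-3 and F53E2.2 were as close, at 243, 256 and 209 bp, and each also shared its replicate peaks. In ifet-1, which encodes an eIF4E-binding repressor of translation in the germ line, 24.4 in the 3' UTR and 20.6 in coding sequence were 1729 bp apart.

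Groups of genes were described by their hosts and by peaks per Mb of exon, beside the 38.7 per Mb of all genes. Of 129 cuticle collagen genes 6 held a peak (59.6 per Mb), all in coding sequence of the last exon. Collagens build the cuticle that each moult renews. The strongest were col-132 with 23.3 pooled, 12.8 in replicate 1 and 10.3 in replicate 2, and col-129 with 23.1, 15.97 and 19.2 in the same order. The next were col-39 with 19.3 pooled and col-133 with 18.3. Of these, col-129 alone stood in the top 1000 of both replicates, and a reproducible promoter peak lay 892 bp from it.

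Muscle and neuronal genes also held peaks. Of 22 genes of body wall muscle structure, 4 held 7 peaks (45.1 per Mb). They were unc-22 (twitchin) with 25.3, unc-52 (perlecan) with 19.1 and 16.21, unc-15 (paramyosin) with 16.7 and 15.3, and unc-89 (obscurin) with 16.7 and 16.099. Of 17 genes of synapse and neuron, 5 held 7 peaks (103.9 per Mb). Beside unc-44 these were snt-1 (synaptotagmin) with 21.9, unc-104 (a kinesin that carries synaptic vesicle precursors) with 18.7, unc-43 (CaM kinase II) with 17.97 and unc-70 (beta-spectrin) with 15.4. The first 3 of these 4 had their summits in 3' UTRs. With so few peaks a group, these densities were not compared by test.

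The other groups held from 1 to 3 host genes each. Of 23 germline genes 3 held a peak, namely pos-1 with 25.6, pgl-3 (a P granule protein) with 17.2 and gld-2 (a poly(A) polymerase) with 17.2. Of 18 chaperone genes only hsp-1, the constitutive HSP70, held peaks, with 21.9 and 18.5 in the same coding exon. Of 22 genes of chromatin and RNA polymerase II, swsn-1 (a SWI/SNF chromatin remodelling subunit) had 18.1 and cbp-1 (a histone acetyltransferase) 14.8, both in coding sequence. Of 12 genes of basement membrane and adhesion, let-805 had 19.2 in its 3' UTR and mup-4 15.8 in coding sequence. In peaks per Mb the germline list had 79.97 and the chaperone list 104.9, above the 38.7 of all genes. The chromatin list had 31.1 and the adhesion list 18.6, both below it. These densities rest on few peaks and were not tested. In single genes of their lists, myo-1 (pharyngeal myosin) had 14.02, eef-1A.1 (a translation elongation factor) 17.2 and ges-1 (a gut esterase) 15.9. With 1 peak each, these lists had 96.5, 63.0 and 80.2 peaks per Mb in the same order.

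Of 20 Wnt genes mom-5 alone held a peak, and of 3 TALE homeobox genes, the class to which Meis proteins belong, unc-62 alone. With 1 peak each, that is 27.9 per Mb in the Wnt genes and 163.3 per Mb in the TALE genes. F-box genes held 2 peaks in 299 genes (8.30 per Mb), fbxb-47 with 16.96 and fbxa-61 with 16.7. No peak lay in an exon of 76 ribosomal protein genes, 46 histone genes, 31 major sperm protein genes, 14 other cuticle shape genes, 6 Hox genes or the 1 autosomal vitellogenin gene. Exons of the ribosomal protein genes that could hold a peak summed to 12.838 kb and those of the histone genes to 0.959 kb. For the major sperm protein and other cuticle shape genes the sums were 3.27 and 13.204 kb. For the Hox genes and the vitellogenin gene they were 5.891 and 4.938 kb. At 38.7 peaks per Mb over all genes, this is so little exon that an absence says nothing about these genes.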

How the data were processed

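UNC-62 ChIP-seq peak lists from 2 biological replicates of 1 group were used in ce11, for each replicate, for both pooled and for IDR. Per the deposited readme texts they are peaks and background called against a control that was not analysed here. Aligner, caller and IDR threshold were not given in the sources used here. Signal values are as deposited by the authors, with no stated scale, and each list is used in its own order. The q-value column, as deposited, is taken as a score because it goes below 0, and it was left unused. Depth is unknown, and precision is limited by how many peaks there are. The ce10 lists were not used. Peaks of the pooled and replicate 1 lists are 376 bp wide and those of replicate 2 are 390 bp.

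Summits were placed in Ensembl release 115 genes of WBcel235 (ce11), in the order promoter, exon, intron, non-coding gene, intergenic, and sequence came from the RefSeq genome of that build. Where peaks of a replicate overlapped, the strongest was used. Two-sided Fisher's exact tests gave conditional odds ratios, adjusted by Benjamini-Hochberg over 6 sequences in each of 2 comparisons, over 2 exon features, and over 2080 sequences. Intervals are exact Clopper-Pearson at 95%, cover counting error only, and treat sites as independent, which neighbouring peaks are not. Upper limits for a count of 0 used 3 counts. The tests were tried on simulated data. Members of the IDR list were matched by position.

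Genes were named if they held one of the 20 strongest peaks, an IDR peak, several peaks or a peak of a listed gene (the 4 strongest of a list with more than 5), or lay beside the signal limit. Genes with several peaks are named in part, and 1 of them is not reported here. The peaks and the gene lists were chosen with earlier results of these data known. Alternatives covered signal limits, overlap, promoter width, windows, comparison sets and each replicate's list alone, where the 705 strongest autosomal exon peaks of that list stood in for the set. Under another signal limit, the other exon peaks were all autosomal exon peaks that failed the rule at that limit. The tools were SciPy 1.17.1 and NumPy 2.4.6, with pandas 2.3.3 for tables, matplotlib 3.10.9 for plots, under Python 3.11.15.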

Additional observations from a re-analysis of the deposited data

How the results depend on the processing

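No paired analysis was possible because there was 1 group. The number of exon peaks was 142 at a signal of at least 20, 5 with the IDR list, and 979 to 1078 where overlap with only 1 replicate was asked for. The coding odds ratio kept its direction under 9 alternatives (0.413 to 0.948). By the unadjusted p it lost its call without replicate 2 (0.794 to 0.948 with 1 replicate's list alone). Without replicate 1 the p of Fisher's exact test was 0.0465, close to 0.05 and not adjusted over 2 tests. TGACAG against other exon peaks ranged from 0.698 to 1.47 under 10 alternatives. It turned above 1 within 50 bp (1.06), over the whole peak (1.02), in coding summits (1.09), against exon peaks that overlapped neither replicate (1.08) and without replicate 1 (0.875 to 1.47 with 1 replicate's list alone). Against other reproducible peaks it turned below 1 with a wider promoter (0.978) and over the whole peak (0.919). Only the value of 1.47 had an unadjusted p below 0.05. GAGAGA against other exon peaks was 1.85 at a signal of at least 20 and 1.28 to 1.30 with 1 replicate's list alone (unadjusted p 0.0458 and 0.0549). GAGAGA against other reproducible peaks stayed at 0.414 to 0.557 under 7 alternatives, and no window of the set was multi-copy under 6. Spearman's rho was -0.314 at a signal of at least 20 and 0.108 at 10, and Pearson's r of log2 signal was 0.141. The number of 6-base sequences past the threshold, with alternatives chosen after seeing the data, was 0 at a signal of at least 20 and at 10, within 50 bp and in coding summits, and 2 over the whole peak and against exon peaks that overlapped neither replicate. The cause was not tested. Depth is unknown, so weak peaks cannot be told apart from background, and p-values compare sites within 2 libraries.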
